A study of Rattus norvegicus with 6 samples.

Results

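A set of 10 genes of chromosome segregation was followed through single-nucleus RNA sequencing of rat ileum in a model of severe acute pancreatitis (SAP). The genes were the securin gene Pttg1, the kinetochore genes Cenpe, Cenpf, Ska1 and Hjurp, the condensin gene Ncaph, the spindle kinesin gene Kif11, and the chromosome genes Top2a, Mki67 and Ankle1. They made up 10 of the 28282 gene symbols in the count tables. They were taken as a fixed set of names, with differences between SAP and control (CON) rats already known from these data, so every SAP to CON value below is a description of the set and carries no test. UMIs (unique molecular identifiers, 1 per captured transcript) of the 10 genes added together are called member UMIs.

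All 6 rats were wild-type male Sprague-Dawley animals, 6 weeks old, acclimatized for 7 days, and each gave 1 library from the ileum in the same labelled batch. The 3 SAP rats received a retrograde infusion of 3% sodium taurocholate through the pancreatic duct, with 0.1 mL for every 100 g of weight. The 3 CON rats had a sham opening of the abdomen with no infusion, and tissue of both groups was taken at 24 h. The model therefore reads the gut after injury to the pancreas, at 1 time point.

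In the small intestine, dividing cells sit in the crypts, where stem cells and their transit-amplifying daughters replace the epithelium of the villi, and mature enterocytes no longer divide. Securin holds the protease separase inactive until the anaphase-promoting complex destroys it, after which separase cleaves cohesin and sister chromatids part. Kinetochores couple chromosomes to microtubules, condensin compacts chromosome arms, and kinesins build and move the spindle. Transcripts of these genes accumulate late in the cell cycle, and many of their promoters carry a cell cycle homology element (the letters TTTGAA or TTCGAA) near a CCAAT box.

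The upstream regions of 4 of the genes are shown because the genes were lower together in SAP and share these letters to different extents. Each is the 250 bases before the annotated start in RefSeq on build GRCr8, 5′ to 3′ on the minus strand, and capitals mark the matches. The motif TTTGAA reads, where it lies on the other strand, as TTCAAA. Its variant TTCGAA reads alike on both strands. The box CCAAT reads, where it lies on the other strand, as ATTGG. Pttg1 lies at chr10:28406327-28406576, Top2a at chr10:84473094-84473343, Mki67 at chr1:199952594-199952843 and Cenpf at chr13:103760887-103761136.
Pttg1: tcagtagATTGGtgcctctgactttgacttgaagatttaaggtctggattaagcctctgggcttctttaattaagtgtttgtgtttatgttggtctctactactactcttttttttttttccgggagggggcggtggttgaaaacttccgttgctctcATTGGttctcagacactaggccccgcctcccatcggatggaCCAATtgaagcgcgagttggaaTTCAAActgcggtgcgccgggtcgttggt
Top2a: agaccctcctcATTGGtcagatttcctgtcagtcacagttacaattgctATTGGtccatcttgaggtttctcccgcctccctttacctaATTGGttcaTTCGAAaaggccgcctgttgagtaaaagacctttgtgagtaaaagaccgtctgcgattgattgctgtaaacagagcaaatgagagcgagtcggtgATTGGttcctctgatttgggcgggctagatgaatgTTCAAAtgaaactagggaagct
Mki67: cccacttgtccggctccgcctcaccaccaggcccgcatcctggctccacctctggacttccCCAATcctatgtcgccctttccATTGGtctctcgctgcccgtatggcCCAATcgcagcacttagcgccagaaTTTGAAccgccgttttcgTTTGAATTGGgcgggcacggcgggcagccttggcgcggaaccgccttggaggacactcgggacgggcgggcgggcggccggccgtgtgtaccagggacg
Cenpf: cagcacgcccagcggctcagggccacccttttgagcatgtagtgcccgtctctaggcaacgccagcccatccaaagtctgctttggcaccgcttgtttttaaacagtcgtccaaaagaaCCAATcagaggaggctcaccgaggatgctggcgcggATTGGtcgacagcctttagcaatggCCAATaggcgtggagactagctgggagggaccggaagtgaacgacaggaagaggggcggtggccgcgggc
In Pttg1, TTCAAA began 29 bases before the start and the nearest CCAAT 51 bases before it, with ATTGG at 92 and 243 bases. In Top2a, TTCAAA began at 22 bases, TTCGAA at 152 bases, and the nearest of 4 ATTGG at 57 bases. In Mki67, TTTGAA stood at 117 and 99 bases, and the second of these overlapped an ATTGG by 1 base. Cenpf held CCAAT or ATTGG at 131, 95 and 70 bases and neither form of the other element in this window.

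TTTGAA was found in 4 of the 10 genes (Pttg1, Top2a, Mki67 and Ankle1), and 16.2% of all 33469 promoters of the same length held it. TTCGAA was found in 2 (Top2a and Hjurp), against 1.40% of promoters. CCAAT was found in 7, against 34.0% of promoters, and TTTGAA together with CCAAT in 3 (Pttg1, Top2a and Mki67), against 5.87%. Of 99 other listed mitotic genes with a promoter in the table, 40.4% held TTTGAA and 60.6% held CCAAT. The matches are of letters and do not show binding. A gene counted when any of its promoter entries held the motif, while the percent over all promoters counts single entries. Ankle1 did not hold TTTGAA in every entry. Shares of genes and of promoters are thus not measured alike.

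Of 90461 barcodes, 40970 passed the limits of 1200 UMIs and 500 genes as minimum and 5% mitochondrial UMIs as maximum, with between 3189 and 9246 nuclei and between 5549260 and 28771508 UMIs per library. The median nucleus held from 1516 to 1889.5 UMIs. The median mitochondrial share was 0.700%, 0.125% and 0.218% in CON replicates 1 to 3, and 1.84%, 1.29% and 0.387% in SAP replicates 1 to 3. CON replicate 2 and SAP replicate 1 listed barcodes down to 545 and 502 UMIs and the other libraries down to 1000. Numbered names of nuclei recur between libraries, from 195 to 746 per pair, and are running numbers of merged beads, not barcode sequences.

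The 10 genes summed were lower in every SAP library than in any CON library. Member UMIs stood at 880.6, 1186 and 677.9 CPM (UMIs scaled to the same library total) in CON replicates 1 to 3, or 914.9 ± 255.9 (SD, n = 3). In SAP replicates 1 to 3 they stood at 296.8, 121.0 and 604.9 CPM, or 340.9 ± 245.0 (SD, n = 3). SAP replicate 3 lay close under CON replicate 3 and far above the other SAP libraries, so the ratio of the means, 2.68 in CON over SAP, rose to 4.38 without SAP replicate 3 and was 1.51 against that library alone. SAP replicate 3 was also the SAP library with the lowest mitochondrial share. By the clusters below, 43.2% of its nuclei lay outside the epithelium, against 13.5% and 13.0% in SAP replicates 1 and 2. In CON replicates 1 to 3 that share was 19.1%, 12.8% and 29.7%. The part of either in the level of SAP replicate 3 was not tested. With nuclei of at most 1% mitochondrial UMIs, the median log2 fold change of the 10 genes was −1.59, against −1.74 with the limit of 5%. The limit of 1% left 6642 of 9246, 6176 of 6260 and 7924 of 8414 nuclei in CON replicates 1 to 3. In SAP replicates 1 to 3 it left 384 of 3189, 1908 of 5968 and 6825 of 7893 nuclei. It thus removed most nuclei of SAP replicates 1 and 2, and the part of nucleus quality in the difference was not tested. In sums over tissue, fewer nuclei in mitosis and less RNA per such nucleus cannot be told apart.

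Pttg1, which encodes securin, had 20.7, 30.2 and 16.97 CPM in CON replicates 1 to 3 and 5.59, 2.13 and 12.3 CPM in SAP replicates 1 to 3. These rested on 597, 344 and 335 UMIs in CON and on 31, 33 and 239 UMIs in SAP. The groups did not overlap, and the log2 fold change of SAP over CON was −1.92 ± 0.54 (approximate SE, edgeR quasi-likelihood fit). The SE given with each log2 fold change is the size of that change divided by the square root of its F statistic. It is given as a scale and not as a test.

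The kinetochore genes were all lower in SAP, without overlap. Cenpe, a kinesin that carries chromosomes along spindle microtubules, had 71.9, 87.0 and 51.4 CPM in CON and 18.0, 8.46 and 49.4 CPM in SAP (log2 fold change −1.67 ± 0.52). Cenpf, a protein of the outer kinetochore, had 119, 118 and 87.6 CPM in CON and 34.8, 13.3 and 53.8 CPM in SAP (−1.81 ± 0.45). SAP replicate 3 nearly reached the lowest CON library for Cenpe and stayed well under it for Cenpf. Ska1, part of the complex that keeps kinetochores on shortening microtubules, had 39.1, 73.1 and 43.6 CPM in CON and 14.96, 5.16 and 28.6 CPM in SAP (−1.79 ± 0.51). Hjurp, the chaperone that places the centromeric histone Cenpa, had 48.6, 82.9 and 36.3 CPM in CON and 17.5, 7.04 and 30.2 CPM in SAP (−1.74 ± 0.50). In all 4 genes SAP replicate 2 was the lowest library.

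Ncaph, the kleisin subunit of condensin I, had 119, 206 and 94.1 CPM in CON and 38.4, 21.2 and 79.5 CPM in SAP, without overlap (log2 fold change −1.73 ± 0.45). Kif11, the kinesin that pushes spindle poles apart, had 80.3, 119 and 76.0 CPM in CON and 30.1, 13.5 and 71.1 CPM in SAP (−1.42 ± 0.47). For Kif11 the distance between SAP replicate 3 and the lowest CON library was small beside the spread within either group. Ankle1, a nuclease that cuts chromatin bridges between daughter cells, had 122, 197 and 88.1 CPM in CON and 32.1, 14.9 and 64.4 CPM in SAP (−2.02 ± 0.49), and no SAP library reached a CON library.

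The remaining genes overlapped. Top2a, the topoisomerase that untangles sister chromatids, had 145, 197 and 118 CPM in CON and 50.8, 22.4 and 139 CPM in SAP (log2 fold change −1.31 ± 0.51). Mki67, whose protein coats mitotic chromosomes, had 113, 75.9 and 65.6 CPM in CON and 54.6, 12.8 and 77.1 CPM in SAP (−0.99 ± 0.58). In both, SAP replicate 3 lay above CON replicate 3, and for Mki67 also above CON replicate 2. Both overlaps came from SAP replicate 3 alone. The genes were chosen on this contrast, so nothing is read from which of them overlapped.

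**Figure D1:**
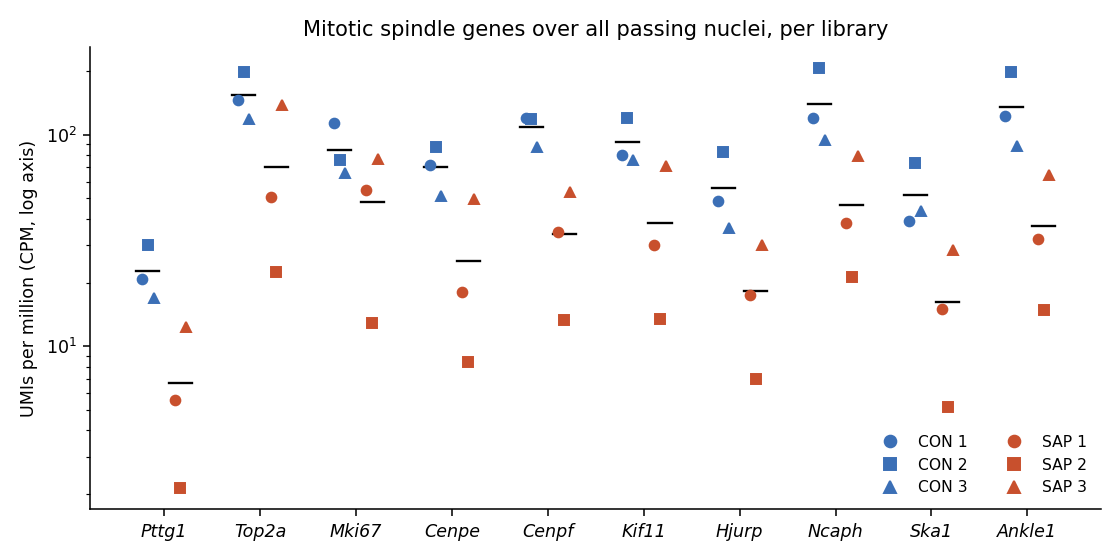
Level of each of the 10 genes in CPM (log axis) per library, with CON in blue, SAP in red, 1 symbol per replicate number and a bar at each group mean. SAP replicate 2 is the lowest library for every gene, and the groups overlap for Top2a and Mki67 only.

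In all, 8 of the 10 genes had every SAP library below every CON library, and 4.84% of the 19187 genes tested did. The median log2 fold change was −1.74 over the 10 genes and 0.02 over all genes tested. None of the 10 passed an adjusted p under 0.05 together with a log2 change of 0.5 or more in size in the edgeR quasi-likelihood test with Benjamini-Hochberg adjustment, and 0% of the 19187 genes did, while 1618 genes had an unadjusted p under 0.05. DESeq2 called 4 of the 10 (Pttg1, Cenpf, Ncaph and Ankle1), and called 0.479% of all genes lower in SAP. Over epithelial nuclei alone, the median of the 10 was −1.75, 8 of 10 did not overlap against 5.13% of the 16955 genes tested, edgeR called 0 of 10 against 0%, with 1883 genes at an unadjusted p under 0.05, and DESeq2 called the same 4 against 0.684% lower and 1.75% in either direction. Since the genes were chosen on this contrast, nothing is read from these counts. Replicate numbers were shared between groups, and the ratio of CON over SAP for summed members was 2.97, 9.81 and 1.12 within numbers 1, 2 and 3. Between the libraries listed from under 1000 UMIs (CON replicate 2 and SAP replicate 1) the ratio was 4.00, and among the other 4 libraries it was 2.15.

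The share of nuclei with member UMIs and the UMIs per such nucleus were both lower in SAP. Each nucleus was thinned at random to 1200 UMIs, so that depth was equal, and counted as positive with at least 2 member UMIs. In CON replicates 1 to 3, 30.8%, 34.5% and 19.4% of nuclei were positive (95% Wilson intervals 29.8 to 31.7, 33.3 to 35.7 and 18.6 to 20.3). In SAP replicates 1 to 3, 7.18%, 2.50% and 17.04% were positive (6.34 to 8.13, 2.13 to 2.92 and 16.2 to 17.9). No interval of a SAP library reached one of a CON library, although intervals cover counting error only and say nothing of the spread between rats. The means were 28.2 ± 7.9% and 8.91 ± 7.42% (SD, n = 3 each), 3.17 times apart.

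Positive nuclei held 3.11, 3.31 and 3.18 member UMIs in CON and 2.86, 2.78 and 3.04 in SAP. The group means, 3.20 ± 0.10 and 2.89 ± 0.13 (SD, n = 3 each), were 1.11 times apart and the groups did not overlap. This ratio depends on the limit, since a nucleus must hold 2 UMIs to enter and a lower level per nucleus also lowers the share. With a limit of 1 UMI the means were 2.19 and 1.67 after thinning, 1.31 times apart, and 3.45 and 2.29 without thinning, 1.51 times apart. Without thinning, 40.8% of CON and 14.7% of SAP nuclei held at least 2 member UMIs on average, and those held 4.77 and 3.82. A smaller share of nuclei expressing the genes and a lower level per nucleus were therefore not separated by these measures. The median depth of positive nuclei was below that of other nuclei in CON replicate 1 and above it in the other 5 libraries, with 1869.5 against 1885.5 UMIs in CON replicate 1 and 1890 against 1783 in SAP replicate 3. Their median mitochondrial share was lower than that of other nuclei in all 6 libraries, as in SAP replicate 1 with 1.49% against 1.87%.

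Nuclei with a Pttg1 UMI were also fewer in SAP. After thinning, 2.86%, 3.59% and 1.89% of CON nuclei and 0.627%, 0.285% and 1.24% of SAP nuclei held a Pttg1 UMI, without overlap. A nucleus with Pttg1 held 1.07 ± 0.01 UMIs in CON and 1.01 ± 0.02 in SAP (SD, n = 3 each), so that a second UMI was rare in either group. At about 1 UMI per nucleus with the gene, a lower level shows as a smaller share, and the 2 cannot be told apart for any single gene at this depth. Over the 10 genes, the ratio of CON over SAP in the thinned share of nuclei with a UMI ran from 1.85 (Mki67) to 3.87 (Pttg1), and the ratio in UMIs per such nucleus from 1.02 (Cenpf) to 1.09 (Ankle1).

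**Figure D2:**
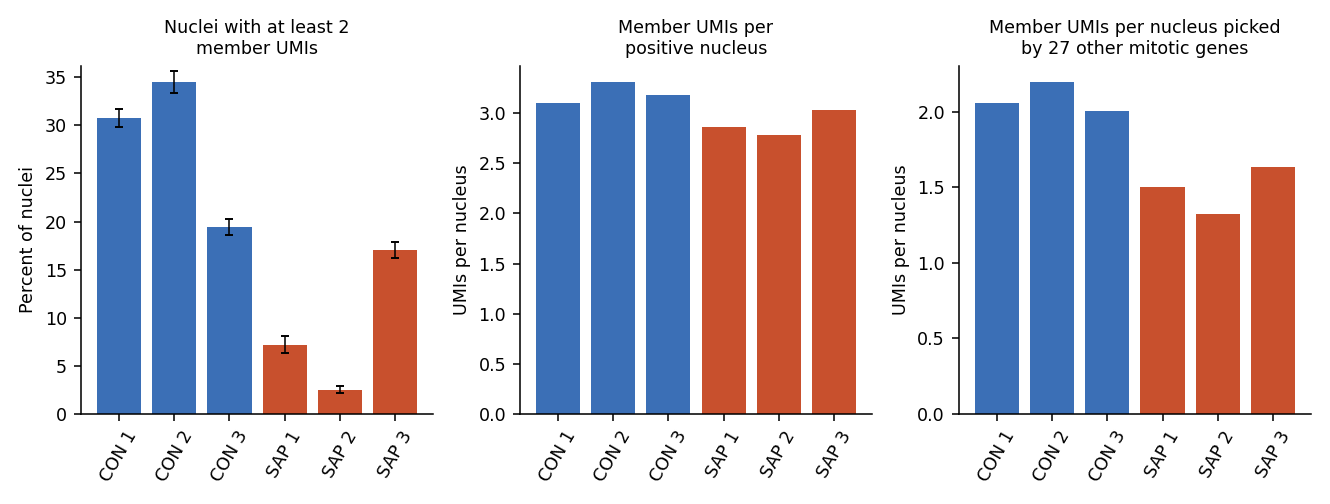
Per library, the percent of nuclei with at least 2 member UMIs after thinning to 1200 UMIs (left, with 95% Wilson intervals), member UMIs per positive nucleus (middle), and member UMIs per nucleus picked by 27 other mitotic genes (right). CON is blue and SAP red. The left bars run from 2.50% to 34.5%, while the middle bars all lie between 2.78 and 3.31.

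Where the genes were expressed was read from 21 clusters, made with the 10 genes and all cell cycle lists left out of the variable genes. Cluster 5 (2833 nuclei) was named crypt progenitor-like from its markers, with the stem cell genes Olfm4 at 1279 CPM inside and 171 CPM outside, Lgr5 at 280 and 45.5 CPM, and Smoc2 at 699 and 173 CPM. Ascl2, another stem cell gene, was low in both, at 4.01 and 2.15 CPM. Tnfrsf19, of the same marker list, was lower inside, at 0.30 and 2.04 CPM. The other markers of the list, Axin2, Rgmb, Slc12a2, Myb and Ephb3, were higher inside. Lgr5 was not highest in cluster 5, since Paneth-like cluster 9 held it at 356 CPM. Cluster 0 (7168 nuclei) stayed unnamed, since its crypt score of 0.22 was under the limit of 0.5. Its expression was closest to cluster 5 (r = 0.987 across genes), and Hjurp, Ankle1, Ncaph and Ska1 were among its 10 leading genes. These 4 had not been used to form it, but unlisted genes that follow them had not been left out. Clusters are drawn from the same nuclei, so levels between them are descriptions.

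Summed members were highest in the crypt progenitor-like cluster, at 1222 ± 452 CPM (SD over 6 libraries), and in cluster 0, at 1186 ± 667 CPM. In the crypt progenitor-like cluster CON replicates 1 to 3 had 1488, 1819 and 1440 CPM and SAP replicates 1 to 3 had 725, 675 and 1185 CPM. In cluster 0 the CON libraries had 1599, 1976 and 1453 CPM and the SAP libraries 699, 130 and 1261 CPM. Both clusters therefore separated the groups, and SAP replicate 2 fell far lower in cluster 0 than in cluster 5. Cluster 2, which carried markers of both T and B cells, followed at 782 ± 412 CPM, and tuft-like nuclei at 679 ± 406. Neutrophil-like nuclei had 624 ± 423 over the 5 libraries with at least 10 such nuclei, with 151 member UMIs over all 6 libraries. Paneth-like cluster 6 had 603 ± 432. The lowest were enterocyte-like cluster 1 at 217 ± 181 and cluster 13 at 276 ± 263 CPM. These SDs contain the difference between groups, and neighbours in this order lay closer together than their SD.

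**Figure D3:**
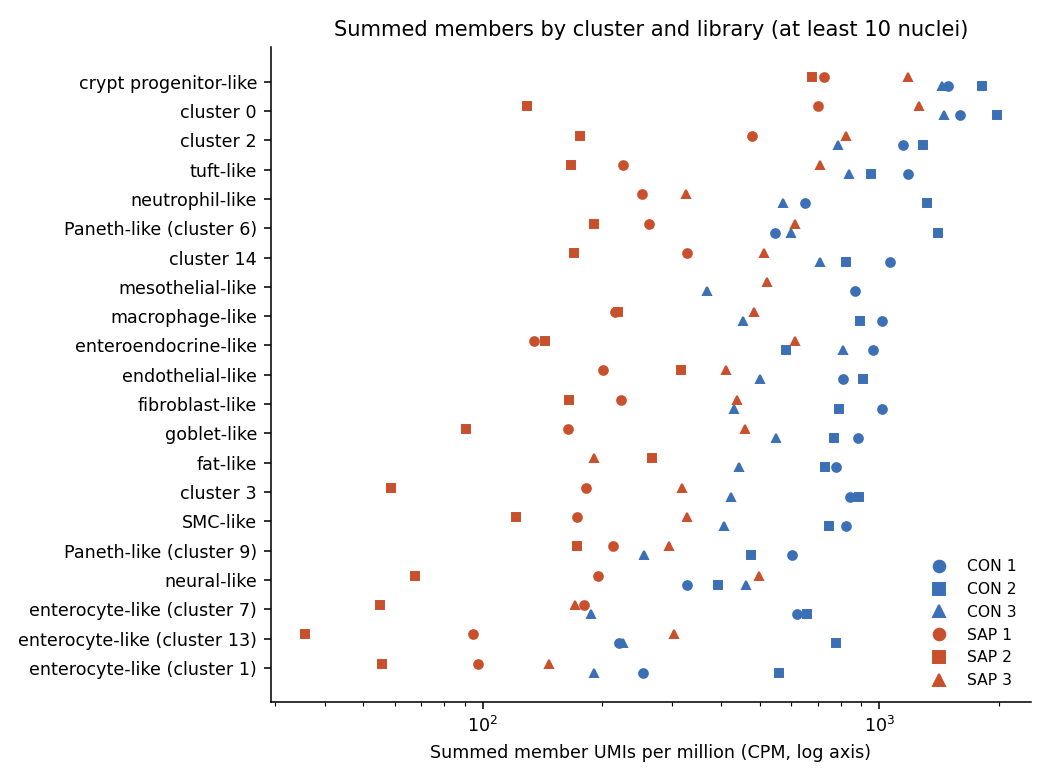
Summed member CPM (log axis) for each cluster and library with at least 10 nuclei, CON in blue and SAP in red, ordered by the mean. The crypt progenitor-like cluster and cluster 0 lie to the right, enterocyte-like clusters lie to the left, and most SAP points lie left of CON points in the same row.

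Pttg1 followed a similar order at much lower counts. Its level was 27.2 ± 18.3 CPM in the crypt progenitor-like cluster (227 UMIs), 24.9 ± 19.1 in cluster 0 (386 UMIs), 20.9 ± 14.5 in Paneth-like cluster 6 (193 UMIs) and 15.1 ± 9.6 in cluster 2 (201 UMIs), as SD over 6 libraries. Tuft-like nuclei had 14.8 ± 13.4, macrophage-like 13.4 ± 11.7, fibroblast-like 12.8 ± 10.6, goblet-like 11.3 ± 8.6, enteroendocrine-like 10.5 ± 8.4, SMC-like (smooth muscle) 10.3 ± 8.8, and endothelial-like 9.86 ± 12.5 CPM. Unnamed clusters 14 and 3 had 13.8 ± 11.8 and 9.36 ± 7.55 CPM. The lowest Pttg1 levels were in the enterocyte-like clusters 13, 7 and 1, at 7.59 ± 8.51, 7.24 ± 7.66 and 6.76 ± 6.86, in neural-like nuclei at 6.37 ± 10.3, and in Paneth-like cluster 9 at 4.93 ± 4.61 CPM. No neighbouring levels differed by more than their SD, and neutrophil-like, fat-like and mesothelial-like nuclei held only 2, 5 and 7 Pttg1 UMIs.

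Member UMIs were also present in enterocyte-like and SMC-like nuclei. Whether any nuclei of these clusters divide was not tested. After thinning, 73.1% of CON nuclei in cluster 0 (median 1535 UMIs before thinning) and 72.5% in cluster 5 (median 1936) held at least 1 member UMI. The same share was 28.7% in enterocyte-like cluster 1 (median 1913.5 UMIs) and 40.9% in SMC-like nuclei (median 1787). A single member UMI is therefore not read here as a sign of a dividing cell. At least 2 member UMIs were held by 50.1% of CON nuclei in cluster 0 and 48.0% in cluster 5. The same share was 7.85% in enterocyte-like cluster 1 and 16.8% in SMC-like nuclei. The share of positive nuclei is therefore not read as a share of dividing nuclei either. Barcodes under 1200 UMIs held 985, 906 and 534 CPM of member UMIs in CON and 237, 104 and 519 CPM in SAP, which is from 0.764 to 1.12 times the level of passing nuclei of the same library. The part of free RNA in the level of each cluster was not tested.

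Clusters 0 and 5 were joined after their high member level was seen, so their place above other nuclei follows from that choice. Cluster 0 held Lgr5 at 39.3 CPM against 61.1 over all nuclei and Olfm4 at 246.1 against 245.5 CPM. Of the other crypt markers, Myb stood at 430 against 204 CPM, Smoc2 at 287 against 209 and Slc12a2 at 505 against 435. Axin2, Rgmb and Ephb3 also lay above their level over all nuclei, while Ascl2 and Tnfrsf19 lay below it. The nuclei of cluster 0 are not shown to be crypt cells. The joined clusters had 3.28 to 7.496 times the member CPM of the enterocyte-like clusters in all 6 libraries, with mean ratios of 5.33 in CON and 5.99 in SAP. The level in clusters 0 and 5 less that in enterocyte-like nuclei was 1257, 1339 and 1255 CPM in CON and 586, 202 and 1070 CPM in SAP. The groups did not overlap in this difference, and the CON libraries lay close to each other.

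Clusters 0 and 5 held 39.7% of all member UMIs in 10001 nuclei. They made up 30.0 ± 5.7% of CON nuclei and 17.7 ± 3.1% of SAP nuclei (SD, n = 3 each), without overlap. Their member level was 1643 ± 251 CPM in CON and 733 ± 489 CPM in SAP. In other epithelial nuclei the level was 590 ± 172 and 212 ± 150 CPM, and in nuclei outside the epithelium 872 ± 264 and 366 ± 223 CPM, where the groups overlapped. The ratios of CON over SAP were thus 2.24 in clusters 0 and 5, 2.78 in other epithelial nuclei and 2.38 outside the epithelium. Without SAP replicate 3 they were 3.40, 4.58 and 3.59. With class shares and levels exchanged between the groups one at a time, −528 CPM went with the level within clusters. That was 86.4% of the difference between 939 CPM in CON and 327 CPM in SAP, and 13.6% went with the makeup. Those levels add up mean class shares of UMIs times mean class levels. They therefore differ from the 914.9 and 340.9 CPM of whole libraries. Without integration of the libraries 65.7% went with the level, and with cell cycle genes in the clustering 85.2%. The main clusters were made without the listed cell cycle genes, so a change in the mix of dividing nuclei inside a cluster counts as level. Unlisted genes that followed the members, such as Melk and Fancd2, were not among the genes left out. Fewer dividing nuclei and less RNA per nucleus are not told apart by this split.

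In the crypt progenitor-like cluster the median log2 fold change of the 10 genes was −0.97, against 0.01 for the 10646 genes tested. Pttg1 had 35.3, 52.8 and 40.6 CPM in CON and 7.08, 12.3 and 15.4 CPM in SAP, on only 3, 4 and 16 SAP UMIs (−1.79 ± 0.35). Cenpe had 108, 136 and 90.2 CPM in CON and 30.7, 36.8 and 71.2 CPM in SAP (−1.19 ± 0.30). For Pttg1 and Cenpe every SAP library was under every CON library. Top2a had 232, 316 and 247 CPM in CON and 127, 135 and 302 CPM in SAP (−0.46 ± 0.29), and Mki67 had a log2 fold change of −0.46 ± 0.35, both with overlap. The other 6 genes lay between −0.80 (Kif11) and −1.07 (Ankle1), without overlap. The 10 genes were chosen on this contrast, so nothing is read from which of them overlapped or were called. No gene of the 10 passed the adjusted threshold of edgeR or of DESeq2 here, 0.00939% of all genes passed that of edgeR and 0.113% were called lower by DESeq2, 804 had an unadjusted p under 0.05 in edgeR, and 6.23% of all genes had every SAP library below every CON library. The 1 gene that passed was St8sia6, a sialyltransferase outside the set, named after its value was seen (log2 fold change −6.30, adjusted p = 0.000137, edgeR quasi-likelihood test).

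With clusters 0 and 5 joined, a choice made after seeing the clusters, the median log2 fold change was −1.26. Pttg1 changed most, at −2.12 ± 0.38, from 37.1, 52.1 and 35.9 CPM in CON to 9.30, 4.29 and 14.2 CPM in SAP. Mki67 changed least, at −0.76 ± 0.50. Of the 10 genes 8 did not overlap, and 6.84% of the 13267 genes tested had every SAP library below every CON library. Of the 10 none was called by edgeR, which called 0.00754% of all genes, again St8sia6, and 1139 genes had an unadjusted p under 0.05. DESeq2 called Pttg1 alone of the 10, and called 0.264% of all genes lower and 0.799% in either direction. The 10 genes were chosen on this contrast, so nothing is read from these counts or from which gene changed most. The call of St8sia6 rests on the setting: 0 genes were called with the replicate block, without CON replicate 2 or 3, without SAP replicate 1 or 3, after thinning and at resolution 0.4.

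Pttg1 made up a smaller part of member UMIs in SAP than in CON nuclei of clusters 0 and 5. In clusters 0 and 5 it gave 2.39%, 2.70% and 2.48% of member UMIs in CON replicates 1 to 3 and 1.31%, 1.67% and 1.15% in SAP replicates 1 to 3. The groups did not overlap, but the SAP values rest on 10, 6 and 42 Pttg1 UMIs, and the Wilson intervals of SAP replicates 1 and 2 (0.714 to 2.40% and 0.768 to 3.598%) reached those of CON, while that of SAP replicate 3 (0.852 to 1.55%) did not. These intervals cover the counting of UMIs only and say nothing of the spread between rats. Pttg1 was chosen on this contrast, so nothing is read from the lack of overlap in clusters 0 and 5. In other epithelial nuclei Pttg1 gave 2.44% of pooled member UMIs in CON and 2.54% in SAP.

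Mki67 gave a larger part of member UMIs in Paneth-like cluster 6 than in clusters 0 and 5. In Paneth-like cluster 6, which was led by alpha-defensin genes, Mki67 gave 21.7%, 8.16% and 18.6% of member UMIs in CON and 27.1%, 17.2% and 19.7% in SAP, while in clusters 0 and 5 it gave from 5.42% to 11.3%. In each of the 6 libraries the share was higher in cluster 6 than in clusters 0 and 5. Of the 1246 Mki67 UMIs of cluster 6, 862 came from CON replicate 1. Mki67 had 119, 115 and 112 CPM there in CON and 71.1, 32.8 and 120 CPM in SAP. Kif11 gave a smaller part of member UMIs in cluster 6 than in clusters 0 and 5 in each of the 6 libraries, from 5.20% to 8.16% against 8.64% to 11.6%. Cenpf gave 21.9% in cluster 6 of CON replicate 1 and from 11.2% to 19.9% in the other libraries, against 8.36% to 12.3% in clusters 0 and 5. The other Paneth-like cluster, 9, did not share this makeup, with Mki67 at 10.5% of member UMIs. A larger Mki67 part than in clusters 0 and 5 was still not particular to cluster 6. In CON replicate 1, clusters 0 and 5 had 1.54 times the Mki67 CPM of SMC-, fibroblast-, neural- and endothelial-like nuclei together, and 1.79 times their member CPM. The Mki67 ratio was the lower one in every library. Against enterocyte-like nuclei it was the lower one in every library but SAP replicate 2.

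**Figure D4:**
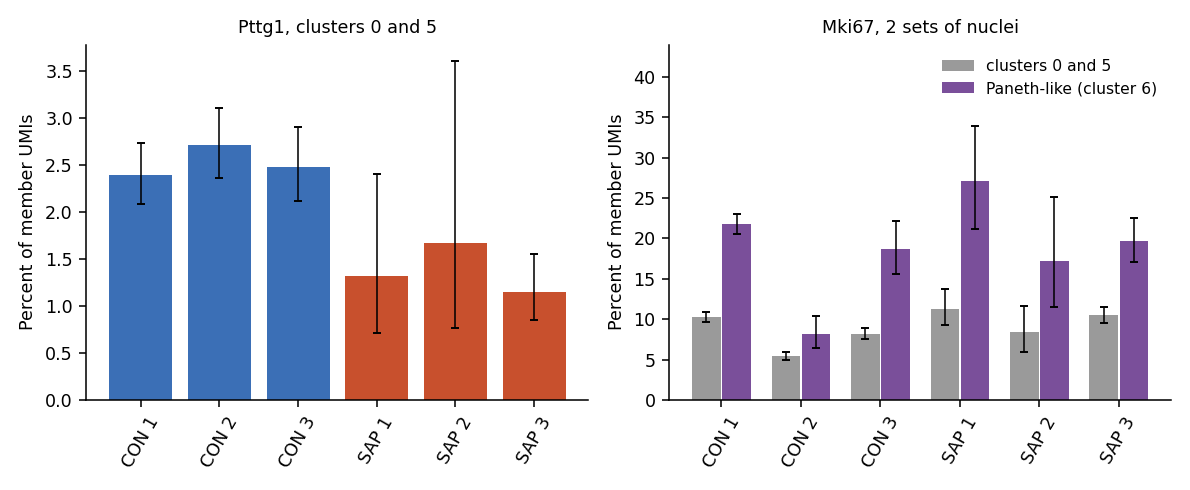
Percent of member UMIs given by Pttg1 in clusters 0 and 5 (left, CON blue and SAP red) and by Mki67 in clusters 0 and 5 (grey) and Paneth-like cluster 6 (purple) for each library (right), with 95% Wilson intervals. Pttg1 lies between 2.39% and 2.70% in CON and between 1.15% and 1.67% in SAP, and the purple bar is above the grey one in every library.

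To ask whether nuclei with other marks of mitosis carried fewer member UMIs, nuclei were picked by genes outside the set. The first choice, at least 2 UMIs of 117 listed mitotic genes, took most nuclei of every library, from 4329 of 5968 in SAP replicate 2 to 6172 of 6260 in CON replicate 2, and gave 999 ± 240 CPM in CON and 375 ± 248 CPM in SAP (SD, n = 3 each). A narrower choice, made after this was seen, used 27 genes of mitotic entry, the chromosomal passenger complex and mitotic kinesins. It picked 35.9%, 42.9% and 25.7% of CON nuclei and 9.25%, 3.49% and 28.0% of SAP nuclei, which overlapped through SAP replicate 3.

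Nuclei picked in this way held fewer member UMIs in SAP. Member levels in them, after thinning, were 1718, 1831 and 1674 CPM in CON and 1251, 1106 and 1363 CPM in SAP, with means of 1741 ± 81 and 1240 ± 129 (SD, n = 3 each), 1.40 times apart and without overlap. Among nuclei not picked the means were 537 and 195 CPM. With a limit of 3 UMIs in place of 2, the picked nuclei had 2088 ± 106 and 1679 ± 42 CPM, 1.24 times apart. With a limit of 1 UMI the ratio was 1.96, so its size fell as the limit rose. Per gene, the CON over SAP ratio in picked nuclei was 2.49 for Pttg1, with 46.7, 53.3 and 46.2 CPM in CON against 19.8, 16.0 and 23.0 CPM in SAP on 7, 4 and 61 SAP UMIs. It was 1.76 for Ska1, 1.67 for Cenpf, 1.58 for Ankle1, 1.43 for Ncaph and 1.40 for Cenpe, all without overlap. It was 1.38 for Hjurp, 1.29 for Kif11, 1.18 for Top2a and 1.11 for Mki67, whose groups overlapped. The share of all genes without overlap was not computed for picked nuclei. The members were chosen on this contrast, so nothing is read from which of them overlapped or from the lack of overlap in their sum. Picked SAP nuclei of replicates 1 and 2 also held fewer UMIs of the picking genes, 2.95 and 2.71 per nucleus against 3.36 to 3.57 in CON and 3.40 in SAP replicate 3, and the part of that in the member levels was not tested.

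**Figure D5:**
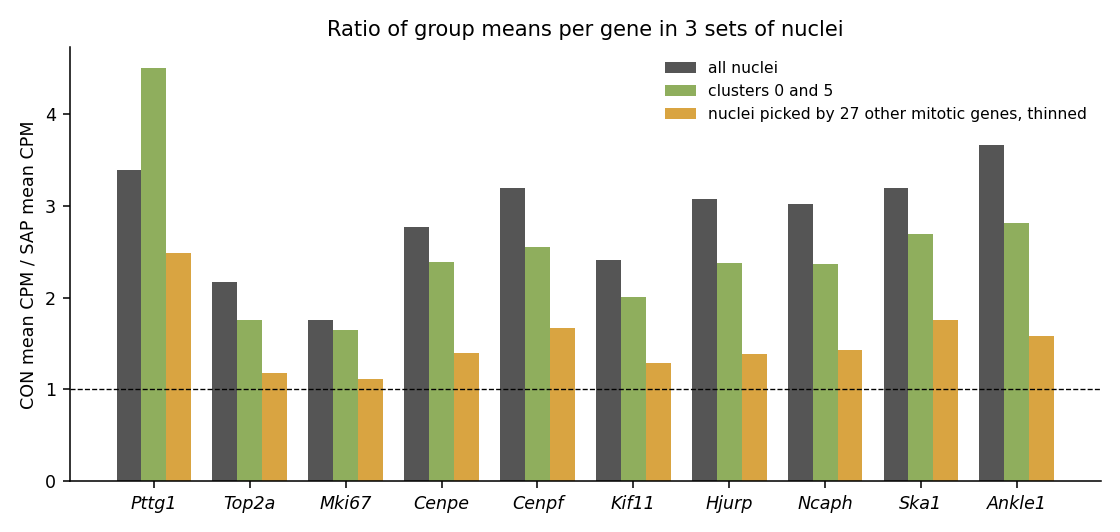
Ratio of the CON to the SAP mean CPM for each gene over all nuclei (grey), over clusters 0 and 5 (green) and over nuclei picked by 27 other mitotic genes after thinning (orange), with a dashed line at a ratio of 1. The orange bar is the lowest for every gene, and Pttg1 has the highest orange bar at 2.49.

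Pairs of the 10 genes shared nuclei more often in CON than separate detection gives. In clusters 0 and 5 of CON, after thinning, all 45 pairs of genes had more nuclei with both than the product of their shares within each library, by a ratio of 1.04 to 1.87 with a median of 1.31. Pttg1 and Cenpe had the highest ratio, with 73 nuclei against 38.9, and Mki67 and Ska1 the lowest, with 101 against 96.7. In SAP the median ratio was 1.77, on fewer nuclei, and Pttg1 with Ska1 (1 nucleus, ratio 0.67) and Cenpf with Ncaph (26 nuclei, ratio 0.86) lay below 1. Nuclei differ in cell cycle stage and content, and the pairs share nuclei, so these ratios are descriptions. In CON, nuclei with Pttg1 held 0.75 ± 0.02 times (SD, n = 3) as many UMIs of S phase genes as nuclei without it, nuclei with Cenpe 0.78 ± 0.04 times, nuclei with Mki67 1.00 ± 0.02 times and nuclei with Ncaph 1.17 ± 0.13 times. The ratio was 0.82 ± 0.05 for Cenpf, 0.87 ± 0.05 for Ankle1, 0.92 ± 0.03 for Hjurp, 0.93 ± 0.02 for Ska1, 0.93 ± 0.03 for Top2a and 0.98 ± 0.09 for Kif11. Most of the 10 genes, with Pttg1 and Cenpe lowest, thus marked CON nuclei with fewer replication transcripts, and Ncaph marked nuclei with more. All 10 genes marked nuclei with 1.15 to 1.45 times the UMIs of other mitotic genes. In SAP replicates 1 to 3 only 6, 3 and 19 nuclei of these clusters held Pttg1, and the same ratio ran from 0.806 to 3.79.

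Most other mitotic genes also had values below 0. Of 117 listed mitotic genes outside the set, 116 had a log2 fold change below 0 over all nuclei (47.8% of all genes did), with a median of −1.17, 33 had every SAP library below every CON library (4.84% of all genes did), and 67 had an unadjusted p under 0.05 (4.47% of all genes were lower at that level). None was called by edgeR after adjustment, nor by DESeq2, against 0% and 1.12% of all genes. The list was drawn up with results of these data known, and the 10 genes were chosen on this contrast, so the sizes of their medians are not compared.

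By function, the spindle and cytokinesis genes had the lowest median, −1.48 over 23 genes, of which 13 did not overlap, against 4.84% of all genes with every SAP library below every CON library. Examples were Hmmr and Troap, both spindle proteins, at −1.76 ± 0.70 and −1.76 ± 0.61. Mitotic kinesins were at −1.21 over 11 genes (Kif4a −1.75 ± 0.55, Kifc1 −1.46 ± 0.62). The chromosomal passenger complex, which corrects faulty attachments, was at −1.27 over 4 genes (Birc5 −1.42 ± 0.52, Aurkb −1.35 ± 0.46). Centromere and kinetochore genes were at −1.14 over 30 genes, of which 14 did not overlap, against the same 4.84% (the centromeric histone Cenpa −1.71 ± 0.65, Spc24 −1.61 ± 0.68). Kinases and cyclins of mitotic entry were at −1.14 over 12 genes (Plk1 −1.75 ± 0.56, and its activator Bora −1.63 ± 0.48). The 20 genes named from the lists in this and the following paragraph had an adjusted p from 0.545 to 0.663 (edgeR quasi-likelihood test, Benjamini-Hochberg).

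The other lists had medians nearer to 0. Condensin genes had a median of −0.98 over 7 genes (Ncapg −1.32 ± 0.49, Smc2 −1.22 ± 0.46), the spindle checkpoint and anaphase-promoting complex −0.57 over 17 (the checkpoint kinases Ttk −1.41 ± 0.53 and Bub1 −1.41 ± 0.59), and separase and cohesin −0.36 over 13. Separase itself, Espl1, the target of securin, had −1.46 ± 0.56, and Sgo1, which guards centromeric cohesin, −1.45 ± 0.65. S phase genes had a median of −0.71 over 47 genes, of which 43 lay below 0 (Brip1 −1.45 ± 0.45, Tyms −1.39 ± 0.40). Genes of cell cycle arrest had a median of 0.44 over 16 genes, with 6 below 0, and 47.8% of all genes lay below 0. Of these Btg1, an inhibitor of proliferation, had 1.42 ± 0.36, with an adjusted p of 0.545, and Cdkn2a 1.39 ± 0.73 at a mean of 0.352 and 0.936 CPM.

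In the crypt progenitor-like cluster the mitotic list had a median of −0.50, with 111 of 116 genes tested below 0 against 48.9% of all genes. The S phase list had −0.09, with 30 of 46 below 0, and the cell cycle arrest list 0.12, with 5 of 11 below 0. None of the mitotic genes was called by edgeR or DESeq2, against 0.00939% and 0.451% of all genes, and 28 had an unadjusted p under 0.05 (3.58% of all genes were lower at that level).

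Across 96 sums per library and cluster of at least 50 nuclei, the genes most like Pttg1 in log2(CPM + 1), among 15602 genes, were Polq, a DNA polymerase of end joining (Pearson r = 0.81), Ccnb1, the mitotic cyclin (0.80), Kifc1 (0.79), Diaph3 (0.78), Depdc1 (0.78), Melk (0.77), Cenpf (0.77), Ska3 (0.77), Etfbkmt (0.77) and Cit (0.77). The genes most like the sum of the 10 were Top2a (0.96), Cenpe (0.96), Apold1 (0.95), Ncaph (0.95), Fancd2 (0.95), Kif4a (0.95), Tpx2 (0.94), Kif11 (0.94), Ect2 (0.94) and Cenpf (0.94), where the members are part of the sum. Pttg1 ranked 319th against that sum (0.78) and Mki67 67th (0.87). The sums share libraries, depth and the group difference, and Pttg1 rests on 1579 UMIs in all, so these values only order the genes.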

How the data were processed

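Nuclei of 6 ileum libraries, 3 CON and 3 SAP, were counted by the authors with dnbc4tools and deposited as raw UMI counts per gene and nucleus, on build mRatBN7.2 according to the submitters' notes. The members and lists were chosen with earlier results of these data known. Nuclei were kept from 1200 UMIs and 500 genes upward, with mitochondrial UMIs up to 5%. Libraries were integrated by a re-implementation of Harmony (10 rounds, 30 components of 2000 variable genes without members or listed cell cycle genes). They were clustered by Leiden at resolution 0.8 with 20 neighbours (scanpy 1.11.5). Clusters were named with a marker score of at least 0.5, a lead of 0.8 and 3 detected markers. The automatic threshold of Scrublet marked 0 nuclei, so the top 5% by score were left out as an alternative. UMIs were summed per library and fitted with edgeR 4.0.16 (quasi-likelihood, TMM), with DESeq2 1.42.0 as an alternative. Scripts were tested on simulated data. Each rat is 1 library, and an exact permutation test of 3 against 3 cannot go below p = 0.1.

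The labels give each library a replicate number and do not say that the numbers pair the rats. Deviations from the group means correlated at r = 0.577, 0.183 and 0.524 between same-numbered CON and SAP libraries (19187 genes). Other pairs ran from −0.616 to 0.144, and the last lies close to the 0.183 of number 2. These values do not settle a pairing. The main fits were unpaired, and a replicate block was fitted as an alternative. Up to 2 genes of each list were named by the largest absolute log2 fold change over all nuclei. Alternatives were other tools, scalings, filters, clustering settings, a limit of 1% mitochondrial UMIs and leaving out each library. Clusters 0 and 5 joined, the narrower picking genes and the split by listing were added after seeing the data. Sequencing of tissue sections was not analysed here.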

Additional observations from a re-analysis of the deposited data

How the results depend on the processing

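All 460 values of the 10 genes under an alternative were below 0, and 456 moved by no more than the replicate spread. The exceptions were Cenpf, Hjurp, Ncaph and Ankle1 at resolution 0.4 in the crypt progenitor-like cluster, where the median of the 10 genes was −1.34. The genes were chosen on this contrast and the alternatives reuse the same libraries, so nothing is read from the shared sign. In that cluster the highest of the 10 values was −0.46 in the main fit and −0.077 without CON replicate 1. This counted as within the spread, so staying within it does not mean an unchanged size. With the replicate block the medians were −1.78 over all nuclei, −1.87 over epithelial nuclei and −0.94 in the crypt progenitor-like cluster, and the block moved the count of all genes called in that cluster from 1 to 22. In clusters 0 and 5 joined it moved the median to −1.43 and that count from 1 to 0, and it changed no other count of calls.

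The number of genes called over all nuclei was 0, and 215 with DESeq2, with 0 to 1 when a library was left out (1 without CON replicate 3 and 1 without SAP replicate 2). Over epithelial nuclei it was 0, and 296 with DESeq2, 1 each with library totals only, no filter beyond 1 count, at most 1% mitochondrial UMIs or no integration, and 0 to 1 when a library was left out (1 without CON replicate 3 and 1 without SAP replicate 2). In the crypt progenitor-like cluster it was 1, and 48 with DESeq2, 2 with library totals only, 215 of 22845 with no filter beyond 1 count, 2 after thinning and 0 at resolution 0.4, with 1 to 5 when a library was left out (3 without CON replicate 3 and 5 without SAP replicate 3). With no filter beyond 1 count, 12 listed mitotic genes and 6 of the 10 genes were among the 95 of 22845 genes called lower there. Members called rose from 0 to 4 with DESeq2 over all and over epithelial nuclei. The cause was not tested.

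The difference in the share of positive nuclei, −19.3 points, was −28.8 with a limit of 1 UMI and −11.6 with 3. Without SAP replicate 3 the SAP mean was 4.84% and the ratio 5.83. The difference in UMIs per positive nucleus, −0.31, was −0.52 with a limit of 1 UMI and −0.95 without thinning. The progenitor fit with no integration was not run, since 1 SAP library held fewer than 10 such nuclei. Depth limits single genes most, with Pttg1 at 31 and 33 UMIs in SAP replicates 1 and 2.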
